A study of Mus musculus with 12 samples.

Results

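The dataset described here is the response of autosomal genes to 24 h of doxycycline (Dox) in 3 mouse embryonic stem cell genotypes that share an inducible Xist gene. Its members were chosen by position and by sample label: every gene on chromosomes 1 to 19, read in all 6 libraries made after 24 h of Dox and in all 6 libraries made without it, each Dox library set against the NoDox library of the same pair. The count table held 22556 genes, of which 21630 were autosomal, and 15613 autosomal genes had enough counts to be tested. All 12 libraries of the series were used.

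Chromatin-associated RNA, which is mostly nascent transcript still attached to the DNA template, was sequenced from female hybrid cells that carry 1 genome of 129S type and 1 of Castaneus (Cast) type. In every line a Dox-responsive promoter replaces the endogenous Xist promoter on the 129S X chromosome, and the reverse tetracycline transactivator is expressed from the TIGRE locus. Cells received Dox at 1.0 to 1.5 µg/mL for 24 h, or none (0 h). The lines were iXist-ChrX WT with intact Xist (1 pair of libraries), XistDelA lacking the A-repeat (3 pairs, from the clones C1, 2C2 and C11) and XistDelm6A, clone T1_11C, lacking an m6A-methylated region beside the A-repeat (2 replicate pairs). Each deletion line is a clone or a few clones grown on feeder fibroblasts and separated from them before extraction, the data of C11 name its A-repeat deletion differently from the other 2 clones, WT has a single pair, and both XistDelm6A pairs come from 1 clone.

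Xist is a long non-coding RNA that coats the chromosome it is made from and silences its genes, and it needs its A-repeat for most of that silencing. Autosomes carry no inducible Xist here, so they report on what the remaining genome does over the same 24 h. Doxycycline is an antibiotic that binds bacterial ribosomes, and because mitochondrial ribosomes are of bacterial descent, it is also known to slow mitochondrial translation in mammalian cells, to engage the integrated stress response and to shift glucose use.

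The libraries held 18893447 to 36007145 counts on genes, and autosomal genes took 92.6% to 95.7% of them. Levels are given as CPM, counts per 1000000 counts of a library after TMM scaling, a scaling that assumes that most genes do not change. All changes are therefore relative to the other genes, and fewer cells that express a gene and less RNA per cell cannot be told apart. Changes are on the log2 scale, Dox against NoDox, with the standard error of the fit. A gene is called when its p from the edgeR quasi-likelihood test with pairs as blocks, adjusted by Benjamini-Hochberg over all 16254 genes tested, is under 0.05.

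Xist followed the labels of all 12 libraries. Xist stood at 85.7, 129 and 303 CPM (lowest, median and highest of 6 libraries) without Dox and at 1274, 2199 and 5482 CPM with Dox. The 2 ranges were apart, with the highest NoDox and the highest Dox level both in WT. The fitted change was 4.16 ± 0.26 (adjusted p 2.98e-08, up in 6 of 6 pairs). Which of the 2 allelic counts is 129S is not stated in the labels, so the genome with most allelic Xist counts (99.8%) was taken as 129S in all allele results, and the share is no check of that naming. Because every Dox library also had Xist induced, the effects of Dox and of Xist RNA cannot be told apart in this design.

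Marker levels were summed as CPM before TMM scaling, and the 7 markers fixed for embryonic stem cells summed to 1061 to 1860 CPM per library. Zfp42 was the most abundant of them, at 442 to 912 CPM on that scale, and Sox2 had 0 counts in all 12 libraries. The span of Sox2 lies inside that of Sox2ot on the same strand, and the authors did not count read pairs that overlap 2 genes on a strand. The 14 feeder fibroblast markers summed to 575 to 850 CPM, of which Fn1 gave 557 to 841 CPM, and 7 of them averaged under 1 CPM. Markers of other lineages (6 genes) summed to 12.5 to 28.3 CPM. Both XistDelm6A pairs stood apart from the others in Rmrp, a non-coding RNA of the RNase MRP particle, with 3715 to 8096 CPM against 503 to 965 CPM in the WT and XistDelA libraries, so counts below are also given without each pair in turn.

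The question of the main comparison was which autosomal genes change with Dox in the same way across lines with an intact, an A-repeat-deleted and an m6A-region-deleted Xist. Chromatin RNA responds quickly to altered transcription, because the pool turns over as transcripts are released. Each pair was its own control, so stable differences between clones did not enter the comparison. Of 15613 autosomal genes tested, 1200 (7.69%) rose with Dox and 1084 (6.94%) fell, so that 2284 (14.6%) were called. The changes were small, with a median of 0.29 among the genes that rose and -0.30 among those that fell, against 0.01 over all autosomal genes tested. A change of at least 0.5 was fitted for 145 of the genes that rose and for 197 of those that fell, and of at least 1 for 15 and 21 genes. Of the genes that rose, 914 were higher in all 6 pairs and 275 in 5 of 6, and of those that fell, 694 were lower in all 6 pairs and 380 in 5 of 6.

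These counts depended on which pairs were used. Without the WT pair, 720 genes rose and 677 fell. Without XistDelA C1 the counts were 550 and 562, without 2C2 they were 604 and 579, and without C11 they were 772 and 748. Leaving out an XistDelm6A pair raised them, to 1470 and 1251 without replicate 1 and to 1289 and 1403 without replicate 2. With the XistDelm6A pairs alone 33 genes rose and 58 fell, and with the WT and XistDelA pairs alone 1913 rose and 1882 fell, both of which were added after the data had been seen. The share of genes called climbed with expression, from 3.23% among the 3123 genes of lowest mean level to 24.0% among the 3123 of highest level.

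The 12 genes with the largest rise and the 12 with the largest fall were taken among called genes with the same direction in all 6 pairs and a mean of at least 5 CPM, predicted gene symbols left out. The rule had 782 candidates among genes that rose and 572 among genes that fell. All 24 stayed past the threshold when any 1 pair was left out. In 20 of the 24 the range of the 6 Dox libraries overlapped that of the 6 NoDox libraries, and in 4 the ranges were apart, so most of these changes show within pairs rather than between groups.

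**Figure D1:**
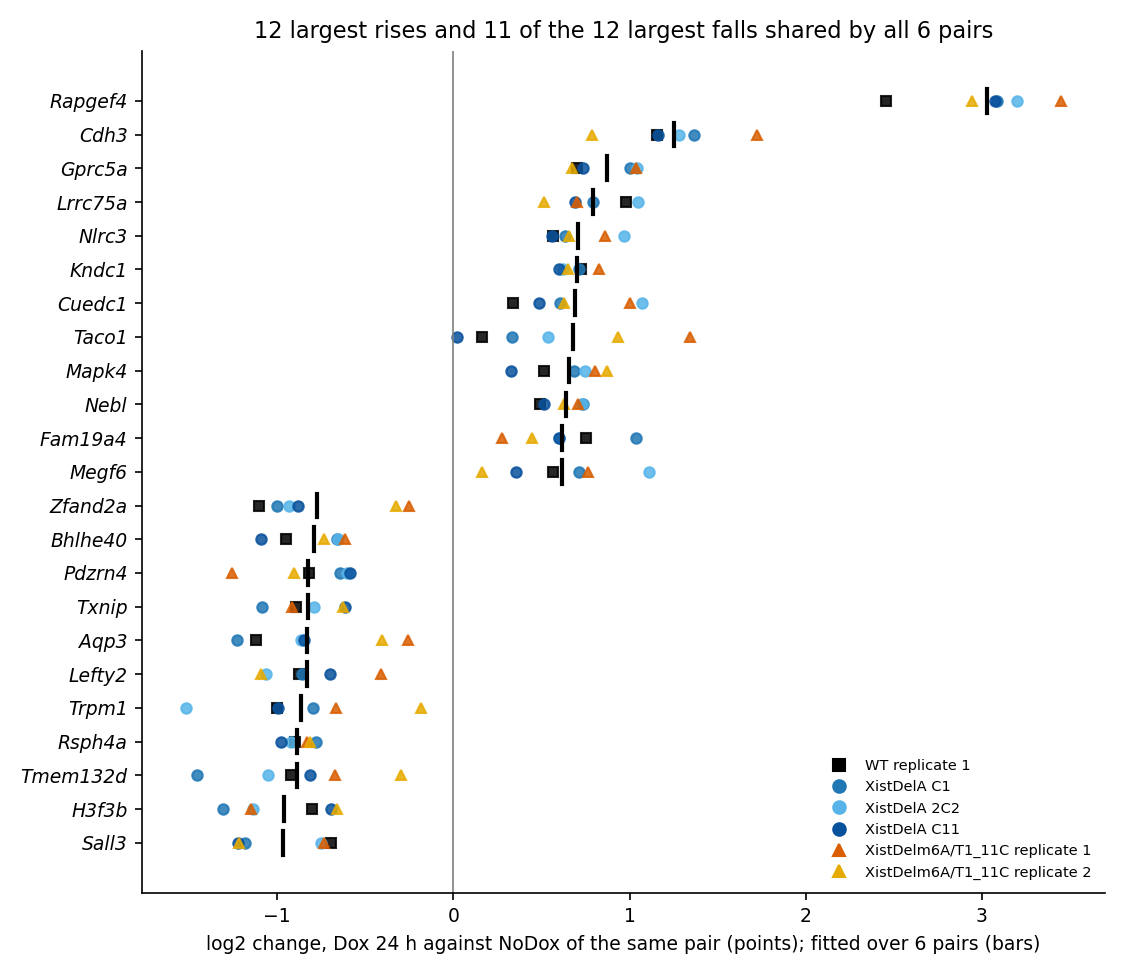
Log2 change with Dox (horizontal axis) of the 12 largest rises and 11 of the 12 largest falls (vertical axis), with points for the 6 pairs and black bars for the change fitted over them. Every point lies on the same side of 0 as its bar because genes were chosen for the same direction in all 6 pairs. Rapgef4 has the largest fitted change, 3.03.

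Rapgef4 had the largest rise by this rule. It encodes a guanine nucleotide exchange factor for the small GTPase RAP1 that is activated by cyclic AMP, and it spans chr2:71981214-72257474 on the plus strand of mm10. Its level was 18.2, 22.8 and 41.3 CPM (lowest, median, highest) without Dox and 168, 207 and 259 CPM with Dox. The highest NoDox library, WT, lay far under the lowest Dox library, and the ranges were apart. The change was 3.03 ± 0.09 (adjusted p 9.41e-13) and was up in 6 of 6 pairs, from 2.45 in WT to 3.45 in XistDelm6A replicate 1. Counted by parental genome, Rapgef4 changed by 3.11 on the 129S copy (SD 0.37 over 6 pairs) and by 2.92 on the Cast copy (SD 0.33), and the difference between copies was not called (adjusted p 0.221). Its neighbours on chromosome 2 were chosen after their values were seen: Itga6, an integrin subunit gene, changed by 0.15 (adjusted p 0.0595) and was not called. Zak, a stress-activated kinase gene, changed by 0.18 (adjusted p 0.0526) and Pdk1, a pyruvate dehydrogenase kinase gene, by 0.15 (adjusted p 0.0707). Neither was called over 6 pairs, but without XistDelm6A replicate 1 Zak was (0.23, adjusted p 0.00804) and so was Pdk1 (0.18, adjusted p 0.0201).

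Cdh3 encodes P-cadherin, a cell adhesion protein, and lies at chr8:106510851-106556911 on the plus strand. Its level ran from 35.4 through a median of 41.2 to 45.6 CPM without Dox, and from 64.1 through 98.5 to 147 CPM with Dox. Baselines were close together, and every Dox library lay above every NoDox library. Cdh3 changed by 1.25 ± 0.09 (adjusted p 1.24e-07, up in 6 of 6 pairs, 0.79 to 1.73), by 1.16 on the 129S copy and 1.32 on the Cast copy (adjusted p of the difference 0.322). Cdh1, the E-cadherin gene next to it and chosen after its values were seen, was not called (0.06, adjusted p 0.565).

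Lrrc75a and Mapk4 were the other genes with ranges apart. Lrrc75a, which encodes a leucine-rich repeat protein, stood at 5.31, 6.43 and 9.16 CPM without Dox and at 10.0, 11.6 and 14.6 CPM with Dox. It changed by 0.79 ± 0.09 (adjusted p 2.63e-05, 6 of 6 pairs). Mapk4 encodes an atypical mitogen-activated protein kinase. Mapk4 stood at 22.5, 24.4 and 31.4 CPM without Dox and at 35.5, 39.6 and 45.4 CPM with Dox. Its change was 0.66 ± 0.07 (adjusted p 2.61e-05, 6 of 6 pairs).

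In the other genes that rose, the ranges overlapped. Gprc5a, a retinoic acid-inducible orphan receptor gene, went from 2.76, 3.42 and 5.90 CPM to 4.78, 7.03 and 9.87 CPM, a change of 0.88 ± 0.10 (adjusted p 2.90e-05, 6 of 6 pairs). Nebl, which encodes the actin-binding protein nebulette, went from 37.8, 47.6 and 63.0 CPM to 54.1, 75.0 and 97.5 CPM, a change of 0.64 ± 0.06 (adjusted p 4.54e-06, 6 of 6 pairs). In both genes a Dox library of a clone with a low baseline lay under the highest NoDox library. Taco1, a gene for a translational activator of mitochondrial cytochrome c oxidase subunit I, went from 3.48, 3.81 and 19.1 CPM to 3.70, 4.99 and 48.6 CPM, a change of 0.68 ± 0.14 (adjusted p 0.00375, 6 of 6 pairs). Its high libraries were those of XistDelm6A, its pair changes spread from 0.02 in C11 to 1.34 in XistDelm6A replicate 1, and its highest adjusted p with 1 pair left out was 0.0240. The remaining 5, Nlrc3 (0.71), Kndc1 (0.70), Cuedc1 (0.69), Fam19a4 (0.62) and Megf6 (0.62), had adjusted p from 2.93e-05 to 0.00157 and were up in 6 of 6 pairs. Cuedc1 shares part of its span on the same strand with Mrps23.

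H3f3b and Lefty2 were among the falls of well-expressed genes. H3f3b encodes the replacement histone H3.3, which is laid down outside of DNA replication, and lies at chr11:116021960-116024504 on the minus strand. Its level was 110, 198 and 238 CPM without Dox and 67.9, 83.9 and 150 CPM with Dox. C11 and WT had the lowest baselines, XistDelm6A replicate 2 was highest in both states, and the ranges overlapped although every pair dropped. H3f3b changed by -0.96 ± 0.08 (adjusted p 1.62e-06, down in 6 of 6 pairs, -1.31 to -0.66). H3f3a, which encodes the same protein and was chosen after its values were seen, was not called (-0.11, adjusted p 0.261).

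Lefty2 encodes a secreted antagonist of Nodal, a growth factor that drives early patterning. Lefty2 stood at 101, 159 and 164 CPM without Dox and at 55.3, 76.9 and 118 CPM with Dox. WT and C11 were the lowest pairs in both states, and the ranges overlapped. The change was -0.83 ± 0.08 (adjusted p 4.54e-06, 6 of 6 pairs). Txnip encodes a thioredoxin-interacting protein that limits glucose uptake and is induced by glucose. Txnip stood at 20.3, 25.3 and 107 CPM without Dox and at 11.1, 13.6 and 56.4 CPM with Dox. Both XistDelm6A pairs lay above the other 4 pairs in both states, yet the change, -0.82 ± 0.07 (adjusted p 2.27e-06), was down in 6 of 6 pairs.

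**Figure D2:**
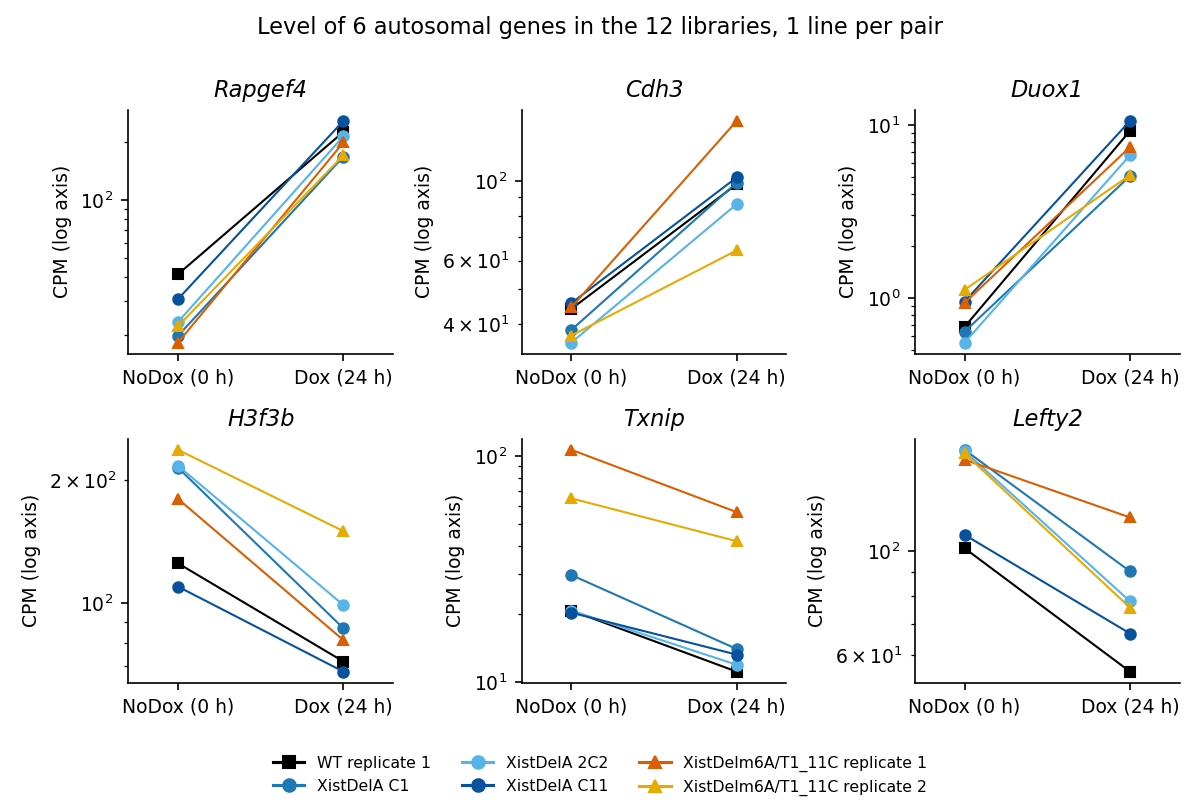
Level in CPM (vertical, log axis) of Rapgef4, Cdh3, Duox1, H3f3b, Txnip and Lefty2 without Dox (0 h) and with Dox (24 h), 1 line per pair. Levels of Rapgef4, Cdh3 and Duox1 are apart between the states, as in Rapgef4 from at most 41.3 to at least 168 CPM, while H3f3b, Txnip and Lefty2 fall within each pair from baselines that differ between clones.

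The other falls included genes of transcription factors and channels. Sall3, a zinc finger transcription factor gene, had the largest fall by this rule, from 2.04, 8.98 and 17.96 CPM to 1.19, 4.85 and 10.6 CPM, a change of -0.97 ± 0.10 (adjusted p 2.61e-05, 6 of 6 pairs). Bhlhe40, a repressor of the circadian and hypoxia circuits, went from 5.31, 6.53 and 9.48 CPM to 3.004, 3.38 and 6.17 CPM (-0.79 ± 0.10, adjusted p 8.57e-05, 6 of 6 pairs). In both the Dox range reached into the NoDox range. Rsph4a, a radial spoke gene of motile cilia, had the tightest spread of pair changes of the 24, from -0.98 to -0.78. Its level went from 3.53, 13.1 and 15.3 CPM to 1.95, 6.96 and 8.06 CPM, a change of -0.88 ± 0.08 (adjusted p 5.79e-06). Further falls were those of Tmem132d (-0.89), the cation channel gene Trpm1 (-0.87), the water and glycerol channel gene Aqp3 (-0.83), Pdzrn4 (-0.82) and the stress-inducible zinc finger gene Zfand2a (-0.77). These 5 had adjusted p from 2.61e-05 to 2.39e-04 and were down in 6 of 6 pairs.

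Some genes with lower counts changed by more, and all of the following were chosen after their values were seen. Duox1 encodes a dual oxidase that makes hydrogen peroxide, Duoxa1 its maturation factor, and Shf an adaptor protein, and the 3 lie side by side on chromosome 2. Duox1 (chr2:122315671-122347972, plus strand) had 12 to 24 counts per library without Dox and 102 to 306 with Dox. The ranges were far apart, and Duox1 changed by 3.19 ± 0.16 (adjusted p 1.77e-09, up in 6 of 6 pairs, 2.13 to 3.63). Duoxa1 (chr2:122303548-122313730, minus strand) had 1 to 5 counts without Dox and 9 to 37 with Dox, a change of 2.05 ± 0.31 (adjusted p 3.90e-04, 6 of 6 pairs). Shf (chr2:122348891-122368918, minus strand) stood at 15.1, 17.4 and 20.8 CPM without Dox and at 24.4, 27.3 and 28.0 CPM with Dox. The ranges of Shf were apart as well, with a change of 0.59 ± 0.07 (adjusted p 4.01e-05, 6 of 6 pairs).

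Tfap2a, a transcription factor gene of neural crest and surface ectoderm, had 4 to 14 counts per library without Dox and 10 to 73 with Dox, a change of 2.22 ± 0.23 (adjusted p 1.58e-05, 6 of 6 pairs), and was chosen after its values were seen, as were the other genes named with it here. Il9r, which encodes a cytokine receptor, had 1 to 13 counts without Dox and 4 to 82 with Dox, a change of 2.12 ± 0.32 (adjusted p 4.02e-04, 6 of 6 pairs). Ranges overlapped in both. D130009I18Rik was called with a change of 4.09 ± 0.93 (adjusted p 0.00671), but it had 2395 counts in the Dox library of XistDelm6A replicate 2 and its pair changes ran from -3.39 to 6.60. Without XistDelm6A replicate 2 its change was 1.61 (adjusted p 0.275), and without C11 it was 3.49 (adjusted p 0.0512).

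The lines fall into a set whose Xist lacks the A-repeat and a set whose Xist can silence, and the sets share no library, so calls made in the XistDelA pairs can be read in the WT and XistDelm6A pairs. The A-repeat recruits the silencing cofactor SPEN, and without it Xist RNA still spreads but silences little. A change common to both sets is therefore seen with and without X-linked silencing. The sets also differed in the level of Xist with Dox, at 1273.8 to 1642.5 CPM in XistDelA and 2755.8 to 5481.7 CPM in WT and XistDelm6A. In the 3 XistDelA pairs, 2150 of 14274 autosomal genes rose (15.1%) and 2024 fell (14.2%). Without C1 these counts were 999 and 1014, without 2C2 1299 and 1313, and without C11 2398 and 2336. In the WT and XistDelm6A pairs, 227 of 15378 genes rose (1.48%) and 283 fell (1.84%). Without WT these were 33 and 58, without XistDelm6A replicate 1 149 and 312, and without replicate 2 245 and 213.

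Directions were shared by most of the genes called. Of the 4174 genes called in XistDelA and tested in both sets, 84.9% had the same sign in the WT and XistDelm6A pairs, against 68.8% of all 14250 genes tested in both. Of the 498 genes called in the WT and XistDelm6A pairs, 90.6% had the same sign in XistDelA. In both sets 146 genes rose and 180 fell, which is 7.81% of the 4174 genes and 65.5% of the 498, while 9 genes were called in opposite directions. Genes that rose in XistDelA had a median change of 0.30 there and of 0.13 in the other set, and genes that fell had medians of -0.28 and -0.13. Genes that rose in the WT and XistDelm6A pairs had medians of 0.50 there and 0.36 in XistDelA, and genes that fell had -0.53 and -0.32. Across the 14250 genes the changes of the sets had a Pearson correlation of 0.472 and a Spearman correlation of 0.469. Across the 9909 genes with a mean of at least 5 CPM these were 0.603 and 0.578, and genes are not independent replicates.

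**Figure D3:**
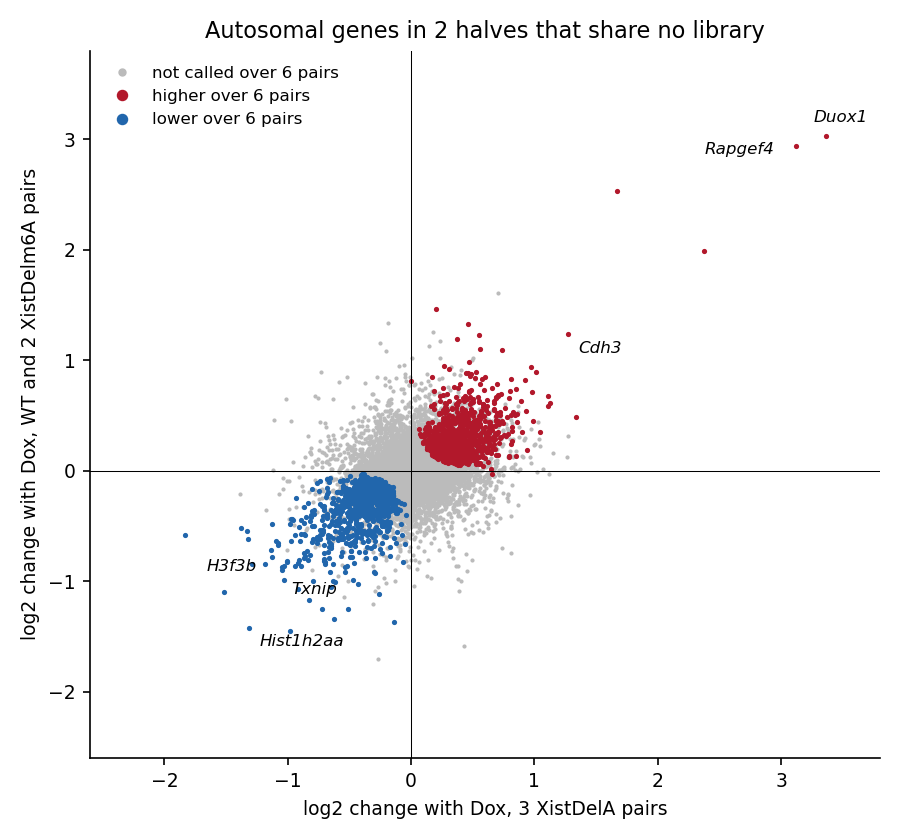
Log2 change with Dox in the 3 XistDelA pairs (horizontal axis) against that in the WT and 2 XistDelm6A pairs (vertical axis), 1 point per autosomal gene, coloured by its call over all 6 pairs. Rapgef4, Cdh3 and Duox1 are high on both axes, H3f3b, Txnip and Hist1h2aa low on both, and the Pearson correlation over 14250 genes is 0.472.

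Whether a response differs between the sets was tested directly, as the interaction of Dox with the set in a fit of all 12 libraries. A difference here would separate lines with X-linked silencing from lines without it, but the sets also differ by clone and in the level of Xist. The interaction was called for 42 genes of 15613 (0.269%), and 1359 had an unadjusted p under 0.05. In simulated data this test recovered 12.1% of log2 differences of 0.5 and 64% of differences of 1, so a gene that is not called can still differ. The XistDelA change was the more positive in 27 and the more negative in 15, and 9 of the 42 were also called over 6 pairs. Without C1 the count was 9 and without 2C2 it was 7; it was 31 without C11, 57 without WT, 32 without XistDelm6A replicate 1 and 63 without replicate 2. Genes of 200 kb and over made up 21 of the 42 (2.34% of the 896 tested), with the XistDelA change the more positive in 18. That count of 21 was 3 without C1, 2 without 2C2, 13 without C11, 13 without XistDelm6A replicate 1 and 32 without replicate 2. In every leave-out 6 of the 42 were past the threshold, among them the 4 with the smallest adjusted p.

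Ptprt, a gene for a receptor tyrosine phosphatase of neurons, stood at 48.3, 81.8 and 115 CPM without Dox and at 77.3, 89.6 and 132 CPM with Dox. Its level was higher with Dox in the 3 XistDelA pairs (0.72, 0.87 and 0.48 in C1, 2C2 and C11) and lower in WT (-0.11) and in the XistDelm6A pairs (-0.34 and -0.01). The change in the WT and XistDelm6A pairs minus that in XistDelA was -0.84 ± 0.12 (adjusted p 9.32e-04). Rnf182, a ubiquitin ligase gene, had a difference of -1.002 ± 0.16 (adjusted p 0.00169), with pair changes of 0.55 to 0.90 in XistDelA and -0.45 to -0.09 in the others. Syn2, which encodes the synaptic vesicle protein synapsin II, had a difference of -1.02 ± 0.17 (adjusted p 0.00252), with 0.58 to 0.69 in XistDelA and -0.66 to 0.04 in the others. Otx2os1, an antisense RNA gene beside Otx2, had a difference of -0.91 ± 0.15 (adjusted p 0.00267), with 0.23 to 0.94 in XistDelA and -0.35 to -0.14 in the others. Levels of Rnf182 (6.97 to 30.2 CPM without Dox, 8.62 to 22.0 CPM with Dox), Syn2 (8.86 to 18.9 and 9.08 to 16.7 CPM) and Otx2os1 (11.04 to 61.5 and 16.6 to 51.6 CPM) overlapped between the states. The A-repeat, the level of Xist and the clones that lack the A-repeat cannot be told apart here.

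Hybrid cells allow each parental copy of a gene to be read by its sequence variants, so a response can be followed on 2 copies in the same nucleus. A signal that reaches a gene through diffusible factors meets both copies, while an effect in cis, or a variant in a regulatory element, can reach a single copy. Of the genes that rose over 6 pairs, 1164 could be tested by allele, and 1143 of them (98.2%) were higher on both copies, with medians of 0.28 (129S) and 0.29 (Cast). Of the genes that fell, 1047 could be tested and 1013 (96.8%) were lower on both, with medians of -0.28 and -0.28. The total counts in which these genes were called contain the allelic reads, so the shares follow in part from the choice of genes. Of all 13354 autosomal genes tested by allele 9951 (74.5%) changed in the same direction on both copies, and of the 11143 not called over 6 pairs 7793 did (69.9%). The interaction of Dox with the copy was called for 85 of 13354 genes (0.637%), 45 with the more positive change on 129S and 40 on Cast, and 1055 had an unadjusted p under 0.05. Of the 85, 10 were among genes that rose over 6 pairs and 15 among genes that fell. Without WT the count was 51, without C1 60, without 2C2 56, without C11 50, without XistDelm6A replicate 1 60 and without replicate 2 83, and 33 genes were past the threshold in every leave-out.

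Fut9, which encodes the fucosyltransferase that makes the stem cell antigen SSEA-1, changed by 0.03 (SD 0.10 over 6 pairs) on 129S and by -0.21 (SD 0.11) on Cast, a difference of 0.24 ± 0.03 (adjusted p 8.60e-06). Spp1, the osteopontin gene, changed by -0.06 (SD 0.29) on 129S and -0.46 (SD 0.22) on Cast, a difference of 0.42 ± 0.04 (adjusted p 8.60e-06). Neither was called in the total counts, where Fut9 changed by -0.04 (adjusted p 0.688) and Spp1 by -0.15 (adjusted p 0.181). Kpnb1, which encodes the nuclear import receptor importin beta, differed by -0.22 ± 0.03 (adjusted p 2.59e-04), with -0.14 on 129S and 0.08 on Cast. St6galnac3, a sialyltransferase gene, was higher on both copies, by 0.18 on 129S and 0.43 on Cast, with a difference of -0.25 ± 0.03 (adjusted p 2.59e-04). Zfand2a was the only gene of the 24 largest changes with a called allele difference, at 0.77 ± 0.12 (adjusted p 7.57e-04), with -0.25 (SD 0.32) on 129S and -0.96 (SD 0.39) on Cast.

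In all, 19 lists of genes fixed by function were read in the 6-pair fit, each by its counts and its median change beside the values over all autosomal genes, of which 7.69% rose and 6.94% fell with a median of 0.01. The lists cover what Dox is known to touch in mitochondria and metabolism, the state of the stem cells, stress and signalling, and the machinery around Xist. Medians of the 6-pair fit are given over the genes tested, each with the range over the 6 pair medians.

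**Figure D4:**
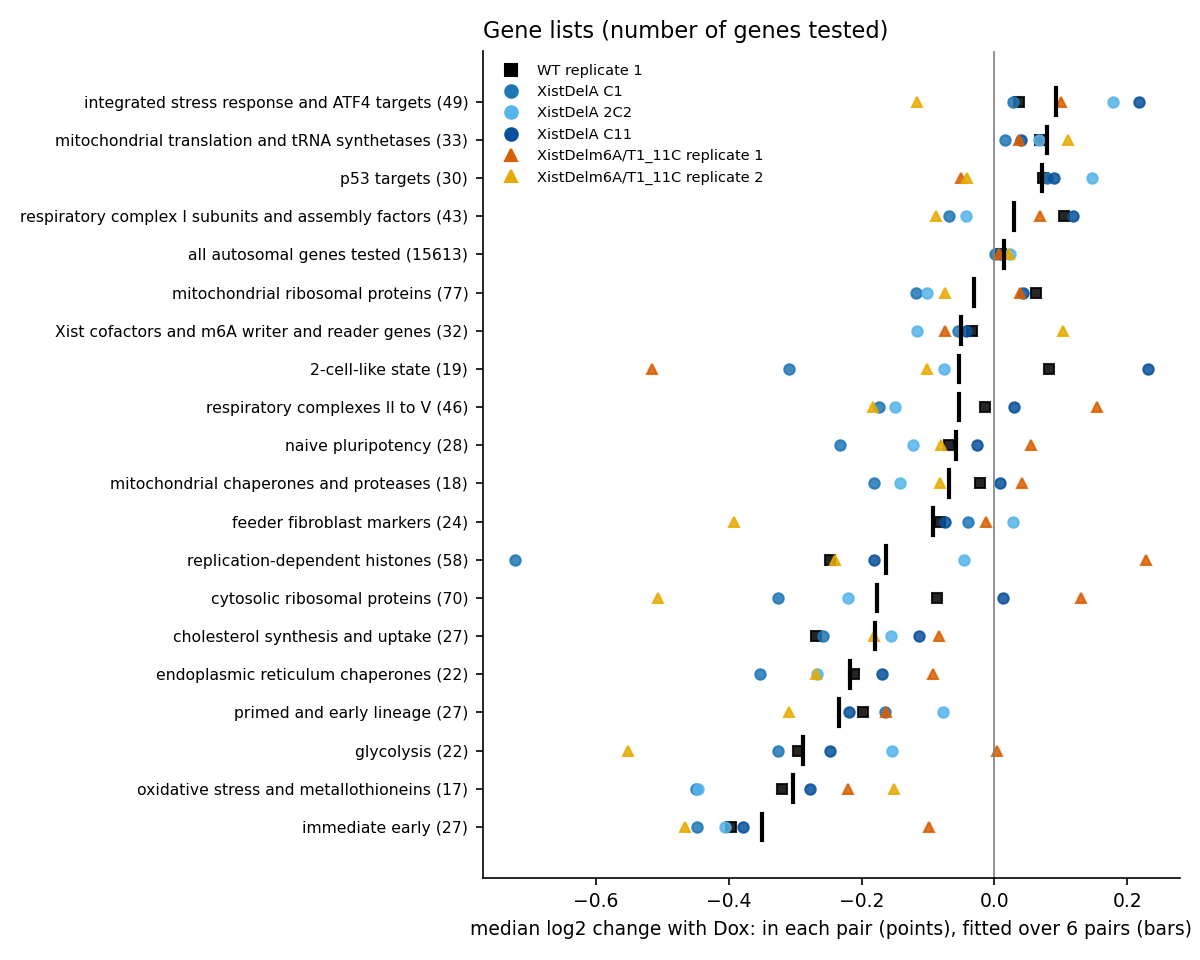
Median log2 change with Dox (horizontal axis) of 19 gene lists and of all autosomal genes tested (vertical axis, genes tested in brackets), with points for the 6 pairs and black bars for the 6-pair fit. The immediate early list has the lowest fitted median, -0.35, and integrated stress response and ATF4 targets the highest, 0.09.

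Slowed mitochondrial translation is sensed in the cytosol through the integrated stress response, in which the factor ATF4 switches on genes of amino acid supply. Of 49 targets in that list 10 rose and 3 fell, with a median of 0.09 (pair medians -0.12 to 0.22, positive in 5 of 6 pairs). The fitted median ran from 0.06 to 0.11 with 1 pair left out. The count that rose was 5 without C1, 6 without 2C2 and 6 without C11, and the count that fell was 6 without XistDelm6A replicate 1. In XistDelA 21 of 48 rose and 6 fell, with a median of 0.12, where 15.1% of all genes rose and 14.2% fell, and the count that fell there was 3 without C1 or 2C2. In the WT and XistDelm6A pairs 0 of 49 rose by edgeR (5 at an unadjusted p under 0.05, with DESeq2 not run on the sets) and 2 fell, with a median of 0.02, where 1.48% of all genes rose and 1.84% fell. There 2 rose without XistDelm6A replicate 2, and the count that fell was 0 without WT and 1 without replicate 2. The difference between the sets was called for 0 of the 49 by edgeR (13 at an unadjusted p under 0.05 and 0 by DESeq2), and for 1 without WT or without XistDelm6A replicate 2. Slc1a4, a neutral amino acid transporter gene, stood at 9.99, 15.6 and 55.9 CPM without Dox and at 16.7, 22.5 and 62.2 CPM with Dox. Its ranges overlapped, with a change of 0.51 ± 0.09 (adjusted p 9.43e-04, 6 of 6 pairs). Cars, the cysteinyl-tRNA synthetase gene, rose as well (0.31, adjusted p 0.00571, 5 of 6 pairs). Atf3, a stress-induced transcription factor gene, went the other way, from 8.20, 15.2 and 21.9 CPM to 4.70, 10.1 and 16.0 CPM (-0.60 ± 0.08, adjusted p 2.00e-04, 6 of 6 pairs), as did the glutamine transporter gene Slc38a2 (-0.28, adjusted p 0.00364, 6 of 6 pairs). Asns, the asparagine synthetase gene and a classic ATF4 target, was not called (0.06, adjusted p 0.655). Ddit3, which encodes the stress factor CHOP, was called at -0.33 (adjusted p 0.0458, 5 of 6 pairs), but its adjusted p was 0.158 without WT, 0.108 without C1, 0.111 without 2C2 and 0.153 without C11.

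Several lists hold nuclear genes of mitochondrial proteins. Mitochondrial translation factors and tRNA synthetases had 6 of 33 genes that rose and 2 that fell (0 without WT, C1 or 2C2, and 1 without C11 or XistDelm6A replicate 1), with a median of 0.08 that was positive in 6 of 6 pairs (0.02 to 0.11). Tfb1m, a mitochondrial rRNA methyltransferase gene, changed by 0.31 (adjusted p 0.00310, 6 of 6 pairs), and Nars2, a mitochondrial asparaginyl-tRNA synthetase gene, by 0.29 (adjusted p 0.00399, 6 of 6 pairs). Ears2, the glutamyl counterpart, stood at 27.1, 28.2 and 29.4 CPM without Dox and at 29.8, 34.1 and 38.5 CPM with Dox. Its ranges were apart, with a change of 0.26 ± 0.06 (adjusted p 0.00814, 6 of 6 pairs). Tufm, the mitochondrial elongation factor gene, was not called (-0.12).

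Among 77 mitochondrial ribosomal protein genes 4 rose and 4 fell, with a median of -0.03 (pair medians -0.12 to 0.06). With 1 pair left out the fitted median ran from -0.04 to -0.01. The count that rose was 1 without WT, 0 without C1 or 2C2, 1 without C11 and 2 without XistDelm6A replicate 1, and the count that fell was 1 without WT or C1 and 0 without 2C2. Complex I of the respiratory chain had 2 of 43 genes that rose and 2 that fell, with a median of 0.03 (pair medians -0.09 to 0.12). Its fitted median changed sign in the leave-outs, from -0.007 to 0.041 with 1 pair left out. There the count that rose was 0 without WT, C1 or C11 and 1 without 2C2, and the count that fell was 1 without C1, 2C2 or C11. Ndufaf4, a complex I assembly factor gene, fell by 0.34 (adjusted p 0.00201, 6 of 6 pairs). Of 46 genes of complexes II to V, 0 rose by edgeR (0 at an unadjusted p under 0.05 and 0 by DESeq2) and 2 fell. The median was -0.05 (pair medians -0.18 to 0.15), and it ran from -0.13 to -0.01 with 1 pair left out. The count that fell was 0 without C1 or 2C2, 1 without C11 and 7 without XistDelm6A replicate 1. Of 18 mitochondrial chaperones and proteases 1 rose and 3 fell, with a median of -0.07 (pair medians -0.18 to 0.04). That median ran from -0.08 to -0.01 with 1 pair left out. The 1 that rose was lost without C1, 2C2 or C11, and 1 gene fell without C1 or 2C2. Hspd1, the gene of the HSP60 chaperonin, changed by -0.26 (adjusted p 0.00864, 5 of 6 pairs).

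Glycolysis turns glucose into pyruvate and lactate and is what cells lean on when respiration is limited. Of 22 genes in that list 13 fell and 2 rose, with a median of -0.29 (pair medians -0.55 to 0.00, under 0 in 5 of 6 pairs), and the count that fell stayed between 10 and 13 in the leave-outs. Slc2a3, which encodes the glucose transporter GLUT3, stood at 265, 332 and 417 CPM without Dox and at 178, 220 and 329 CPM with Dox. The ranges overlapped, and the change was -0.52 ± 0.06 (adjusted p 2.61e-05, 6 of 6 pairs). Aldoa, an aldolase gene, went from 107, 110 and 141 CPM to 67.5, 80.3 and 120 CPM (-0.46 ± 0.07, adjusted p 3.30e-04, 6 of 6 pairs). The lactate exporter gene Slc16a3 (-0.55, adjusted p 8.96e-04) and the lactate dehydrogenase gene Ldha (-0.51, adjusted p 0.00337) each fell in 5 of 6 pairs, with XistDelm6A replicate 1 the exception. Ldhb, which encodes the dehydrogenase subunit that favours lactate use, rose, from 17.2, 23.1 and 42.1 CPM to 24.6, 30.3 and 45.8 CPM (0.42 ± 0.07, adjusted p 8.37e-04, 6 of 6 pairs). Ranges of Aldoa and Ldhb overlapped between the states. Median change of the list was -0.20 in XistDelA and -0.26 in the WT and XistDelm6A pairs.

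The naive state of mouse embryonic stem cells is held by a network of transcription factors, and cells that leave it turn on primed and lineage genes. Of 28 naive pluripotency genes 2 rose and 5 fell (3 without C1), with a median of -0.06 (pair medians -0.23 to 0.05). This median ran from -0.10 to -0.04 with 1 pair left out. In XistDelA 3 of the 28 rose and 12 fell (5 without C1), against 15.1% and 14.2% of all genes. In the WT and XistDelm6A pairs 1 rose and 2 fell (5 without XistDelm6A replicate 1), against 1.48% and 1.84% of all genes. Zfp42, the REX1 gene, stood at 442, 656 and 722 CPM without Dox and at 523, 894 and 922 CPM with Dox. XistDelm6A replicate 2 was lowest in both states, and the change was 0.36 ± 0.05 (adjusted p 2.93e-04, 6 of 6 pairs). Nr5a2, an orphan nuclear receptor gene, also rose (0.31, adjusted p 0.00156, 6 of 6 pairs). Tdgf1, which encodes the Nodal co-receptor CRIPTO, fell (-0.42, adjusted p 1.05e-04, 6 of 6 pairs), as did the factor gene Klf2 (-0.41, adjusted p 9.28e-04, 6 of 6 pairs). Nanog (-0.07, adjusted p 0.434) and Esrrb (0.05, adjusted p 0.647) were not called. Of 27 primed and early lineage genes 1 rose and 6 fell (4 to 7 in the leave-outs), with a median of -0.23 that was under 0 in 6 of 6 pairs (-0.31 to -0.08). Besides Lefty2, this list held Cdh2, the N-cadherin gene (-0.26, adjusted p 0.00756, 6 of 6 pairs), Lefty1, another Nodal antagonist gene (-0.42, adjusted p 0.00946, 6 of 6 pairs), and the primed-state factor gene Otx2 (-0.26, adjusted p 0.0101, 6 of 6 pairs). Fgf5, a marker of the primed state, was not called over 6 pairs (-0.38, adjusted p 0.0906) but was without C1 (-0.56, adjusted p 0.0219). For 19 genes of the 2-cell-like state edgeR called 0 in either direction (0 higher and 1 lower at an unadjusted p under 0.05, and 0 by DESeq2). Their median was -0.05 (pair medians -0.52 to 0.23). It changed sign in the leave-outs, from -0.15 to 0.04 with 1 pair left out.

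Of 30 p53 targets 3 rose and 3 fell, with a median of 0.07 (pair medians -0.05 to 0.15). The count that rose was 0 without WT, C1 or 2C2, 1 without C11 and 5 without XistDelm6A replicate 2. The p53 pathway halts division after damage. In XistDelA 10 of the 30 rose and 4 fell, with a median of 0.13, against 15.1% and 14.2% of all genes, and there 5 rose without 2C2 and 2 fell without C1. In the WT and XistDelm6A pairs 0 rose and 0 fell by edgeR (1 and 4 at an unadjusted p under 0.05, with DESeq2 not run on the sets), with a median of -0.01, against 1.48% and 1.84% of all genes, and 1 fell without XistDelm6A replicate 1 or replicate 2. The difference between the sets was called for 0 of the 30 by edgeR (2 at an unadjusted p under 0.05 and 0 by DESeq2). Trp53inp1, a pro-autophagy target, fell (-0.32, adjusted p 0.00513, 6 of 6 pairs), as did the ephrin receptor gene Epha2 (-0.27, adjusted p 0.0110, 6 of 6 pairs). Among those that rose were Polk, a DNA polymerase gene (0.26, adjusted p 0.0145, 5 of 6 pairs), and Cdkn1a, which encodes the cell cycle inhibitor p21 (0.29, adjusted p 0.0170, 5 of 6 pairs). Polk was not called without WT (adjusted p 0.0642), C1 (0.0730) or 2C2 (0.0529), nor Cdkn1a without WT (0.0594), C1 (0.0680), 2C2 (0.0720) or C11 (0.0600). The feedback regulator gene Mdm2 was not called (0.03, adjusted p 0.806).

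Immediate early genes answer growth factors and handling within minutes. Of 27 in that list 12 fell and 1 rose, with a median of -0.35, under 0 in 6 of 6 pairs (-0.47 to -0.10), and the count that fell was 8 to 12 in the leave-outs. Klf6, a zinc finger factor gene, stood at 42.5, 65.6 and 88.1 CPM without Dox and at 28.1, 42.8 and 58.0 CPM with Dox. Its pair changes were close together, from -0.63 to -0.50, although the ranges overlapped (-0.58 ± 0.05, adjusted p 5.99e-06). Egr1, an early growth response factor gene, went from 1.64, 9.97 and 16.4 CPM to 0.855, 5.67 and 8.97 CPM (-0.70 ± 0.10, adjusted p 2.80e-04, 6 of 6 pairs). Fosb, which encodes a partner of JUN, was the 1 gene of the list that rose, from 0.127, 6.19 and 10.0 CPM to 0.122, 10.4 and 20.0 CPM (0.76 ± 0.11, adjusted p 2.02e-04, 5 of 6 pairs). Egr1 and Fosb overlapped between the states. Fos itself was not called over 6 pairs (-0.33, adjusted p 0.0658) but was without C11 (-0.43, adjusted p 0.0366), and over 6 pairs with DESeq2 size factors (-0.35, adjusted p 0.0486) and by DESeq2 (-0.37, adjusted p 0.0419).

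Endoplasmic reticulum chaperones fold secreted and membrane proteins and are induced when unfolded proteins build up in that compartment. Of 22 genes 10 fell (6 without C1) and 0 rose by edgeR (0 at an unadjusted p under 0.05 and 0 by DESeq2), with a median of -0.22, under 0 in 6 of 6 pairs (-0.35 to -0.09). Hspa5, the BiP gene, stood at 69.0, 196 and 237 CPM without Dox and at 57.1, 124 and 157 CPM with Dox. Every pair was lower with Dox while the ranges overlapped (-0.54 ± 0.06, adjusted p 4.01e-05). Hsp90b1, which encodes the chaperone GRP94, went from 232, 338 and 395 CPM to 184, 245 and 289 CPM (-0.42 ± 0.05, adjusted p 9.79e-05, 6 of 6 pairs). The BiP cochaperone gene Dnajb9 (-0.40, adjusted p 0.00106), the calreticulin gene Calr (-0.32, adjusted p 0.00311) and the disulfide isomerase gene Pdia4 (-0.28, adjusted p 0.00418) fell in 6 of 6 pairs. Xbp1, a regulator of the response, was not called (-0.07).

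Cholesterol and fatty acid synthesis is governed by the SREBP factors, which are held back by INSIG1 when sterols are plentiful. Of 27 genes 11 fell (7 without C1 or 2C2) and 0 rose by edgeR (1 at an unadjusted p under 0.05, 0 by DESeq2, and 1 without XistDelm6A replicate 2), with a median of -0.18, under 0 in 6 of 6 pairs (-0.27 to -0.08). Insig1 stood at 54.4, 76.5 and 99.2 CPM without Dox and at 43.1, 49.7 and 52.8 CPM with Dox. Its ranges were apart by a small margin, with pair changes from -0.99 in C1 to -0.12 in XistDelm6A replicate 2 (-0.64 ± 0.09, adjusted p 1.54e-04). The fatty acid desaturase genes Scd1 (-0.57, adjusted p 2.61e-05) and Scd2 (-0.46, adjusted p 1.55e-04) fell in 6 of 6 pairs, as did the synthase gene Hmgcs1 (-0.27, adjusted p 0.00641).

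The oxidative stress and metallothionein list holds targets of the factors NRF2 and MTF1, which buffer peroxides and metal ions. Of 17 genes 12 fell and 0 rose by edgeR (0 at an unadjusted p under 0.05 and 0 by DESeq2), with a median of -0.30, under 0 in 6 of 6 pairs (-0.45 to -0.15), and the count that fell was 9 to 14 in the leave-outs. Hmox1, the heme oxygenase gene, stood at 17.1, 41.8 and 48.8 CPM without Dox and at 9.86, 25.3 and 32.8 CPM with Dox. The ranges overlapped, and the change was -0.65 ± 0.07 (adjusted p 1.58e-05, 6 of 6 pairs). Ftl1, the ferritin light chain gene, changed by -0.64 (adjusted p 2.42e-05, 6 of 6 pairs). The metallothionein genes Mt1 and Mt2 encode small metal-binding proteins. Mt1 went from 10.1, 12.9 and 17.1 CPM to 5.401, 7.18 and 13.6 CPM (-0.72 ± 0.09, adjusted p 1.06e-04, 6 of 6 pairs), with overlapping ranges. Mt2 changed by -0.63 (adjusted p 4.05e-04, 6 of 6 pairs).

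Abundant short transcripts made up 2 further lists. Replication-dependent histone genes are expressed in S phase and their RNAs lack a poly(A) tail. Of 58 such genes 13 fell (24 without XistDelm6A replicate 1) and 0 rose by edgeR (0 at an unadjusted p under 0.05 and 0 by DESeq2), with a median of -0.16 and pair medians from -0.72 to 0.23. The fitted median ran from -0.31 to -0.10 with 1 pair left out. Hist1h2aa, a testis-type histone H2A gene, had the largest fall of the list, from 1.15, 2.15 and 14.2 CPM to 0.322, 0.791 and 5.14 CPM (-1.38 ± 0.16, adjusted p 3.19e-05, 6 of 6 pairs). Its partner Hist1h2ba fell too (-0.94, adjusted p 1.81e-04, 6 of 6 pairs). Of 70 cytosolic ribosomal protein genes 16 fell and 0 rose by edgeR (0 at an unadjusted p under 0.05 and 0 by DESeq2), with a median of -0.18 and pair medians from -0.51 to 0.13. The fitted median ran from -0.24 to -0.10 with 1 pair left out. The count that fell was 10 without WT, 4 without C1, 6 without 2C2, 31 without XistDelm6A replicate 1 and 9 without replicate 2. In XistDelA 43 of the 70 fell (9 without C1 and 64 without C11), against 14.2% of all genes. In the WT and XistDelm6A pairs 6 fell (30 without XistDelm6A replicate 1 and 0 without replicate 2), against 1.84% of all genes. Rpl23a was the gene of these with ranges apart among those named, at 111, 116 and 128 CPM without Dox and 64.7, 98.9 and 107 CPM with Dox (-0.34 ± 0.08, adjusted p 0.00847, 6 of 6 pairs). Rps12 (-0.28, adjusted p 0.00360) and Rpl4 (-0.26, adjusted p 0.00851) fell in 6 of 6 pairs.

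Cofactors of Xist and the enzymes that write and read m6A are themselves autosomal genes in most cases. Of 32 listed 2 rose and 5 fell, with a median of -0.05 (pair medians -0.12 to 0.10). The count that rose was 1 without WT, C1, 2C2 or C11 and 4 without XistDelm6A replicate 1. The count that fell was 0 without WT, C1 or 2C2, 1 without C11 and 9 without XistDelm6A replicate 2. In XistDelA 4 of the 32 rose and 12 fell (6 without C1), against 15.1% and 14.2% of all genes. In the WT and XistDelm6A pairs 0 rose and 0 fell by edgeR (0 and 0 at an unadjusted p under 0.05), against 1.48% and 1.84% of all genes. Jarid2, a component of the Polycomb complex PRC2, stood at 1778, 2041 and 2163 CPM without Dox and at 2169, 2309 and 2952 CPM with Dox. The ranges of Jarid2 were apart by a narrow margin, with a change of 0.26 ± 0.06 (adjusted p 0.00770, 6 of 6 pairs). Mettl3, the catalytic m6A methyltransferase gene, was not called (-0.04, adjusted p 0.731). Of 24 feeder fibroblast markers tested 2 fell (0 without WT, C1 or 2C2, and 1 without either XistDelm6A pair) and 0 rose by edgeR (0 at an unadjusted p under 0.05 and 0 by DESeq2). Their median was -0.09 (pair medians -0.39 to 0.03). The part of feeder RNA in the results above was not tested.

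The promoters of the lists were read for motif letters, except that no histone gene had a matched promoter. RefSeq promoters of build GRCm38.p6 were matched by symbol for 11537 of the 15613 genes tested, giving 14630 windows of 250 bases before the start, in which 7 motifs were searched on both strands. The endoplasmic reticulum stress element, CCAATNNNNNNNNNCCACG, was in 19 of all 14630 windows (0.130%) and in 9 of the 19 windows matched for endoplasmic reticulum chaperones (47.4%). Of the 19 genes with this element, 6 fell and 1 rose over 6 pairs, where 6.94% and 7.69% of all genes tested did. The chaperone list itself gave 9 of these 19 genes and 5 of the 7 called, so this count largely repeats the result of that list. The E-box CACGTG was in 12.1% of the windows of genes that fell, in 5.94% of those of genes that rose and in 7.92% of all. The ATF4 composite TGATGNAA was in 24.4% of integrated stress response windows (11 of 45) and in 2.13% of all, and the metal response core, TGCGCNC or TGCACNC, in 27.8% of the windows of the oxidative stress and metallothionein list and in 28.9% of all. The cyclic AMP response element TGACGTCA was in 2.44% of all windows, the sterol response element TCACNCCAC in 1.09% and the heat shock core GAANNTTC in 5.21%. A match is a description of letters and not a bound site.

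The windows of Hspa5, Hsp90b1 and Calr are printed because these named chaperone genes fell together and hold the stress element, those of Mt1 and Mt2 because both fell and hold the metal response core, and that of Rapgef4 because it belongs to the largest rise and held none of the 7 motifs. Capitals mark the element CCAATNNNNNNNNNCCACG or its reverse complement in the chaperone genes and the core TGCGCNC or TGCACNC or its reverse complement in the metallothionein genes. Each runs 5′ to 3′ on the strand of the gene in GRCm38.p6: Hspa5 chr2:34771840-34772089 (plus), Hsp90b1 chr10:86705445-86705694 (minus), Calr chr8:84846932-84847181 (minus), Mt1 chr8:94178839-94179088 (plus), Mt2 chr8:94172368-94172617 (plus) and Rapgef4 chr2:71980965-71981214 (plus).
Hspa5: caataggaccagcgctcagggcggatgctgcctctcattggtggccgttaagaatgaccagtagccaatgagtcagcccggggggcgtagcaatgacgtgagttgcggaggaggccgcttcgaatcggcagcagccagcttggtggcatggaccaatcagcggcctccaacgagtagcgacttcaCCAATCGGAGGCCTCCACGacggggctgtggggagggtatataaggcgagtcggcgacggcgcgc
Hsp90b1: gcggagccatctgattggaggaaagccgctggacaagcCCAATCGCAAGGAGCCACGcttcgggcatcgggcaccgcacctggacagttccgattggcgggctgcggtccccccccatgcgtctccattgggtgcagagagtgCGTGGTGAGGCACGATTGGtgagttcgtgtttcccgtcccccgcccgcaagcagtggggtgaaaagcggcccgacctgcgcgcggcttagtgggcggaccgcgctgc
Calr: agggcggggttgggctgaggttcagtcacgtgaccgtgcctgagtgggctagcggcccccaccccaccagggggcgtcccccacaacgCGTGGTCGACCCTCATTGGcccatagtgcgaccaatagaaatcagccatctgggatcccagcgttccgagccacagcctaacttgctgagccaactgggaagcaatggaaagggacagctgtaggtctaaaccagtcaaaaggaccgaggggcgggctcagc
Mt1: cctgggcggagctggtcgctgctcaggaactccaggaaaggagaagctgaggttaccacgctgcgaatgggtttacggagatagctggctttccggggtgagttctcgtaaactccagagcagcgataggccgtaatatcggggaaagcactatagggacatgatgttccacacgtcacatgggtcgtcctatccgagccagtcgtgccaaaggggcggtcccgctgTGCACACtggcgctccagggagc
Mt2: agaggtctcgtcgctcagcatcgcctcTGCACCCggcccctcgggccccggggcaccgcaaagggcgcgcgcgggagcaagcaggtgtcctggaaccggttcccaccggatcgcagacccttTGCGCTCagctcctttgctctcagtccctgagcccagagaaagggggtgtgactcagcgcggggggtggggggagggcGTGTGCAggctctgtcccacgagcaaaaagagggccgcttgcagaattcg
Rapgef4: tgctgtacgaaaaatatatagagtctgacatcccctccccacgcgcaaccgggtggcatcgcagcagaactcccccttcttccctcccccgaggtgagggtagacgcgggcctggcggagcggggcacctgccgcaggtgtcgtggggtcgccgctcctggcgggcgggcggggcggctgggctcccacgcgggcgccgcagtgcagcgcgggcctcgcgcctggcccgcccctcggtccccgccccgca

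Genes that rose were longer than genes that fell. Chromatin RNA of a long gene is mostly intron still being transcribed, while a short gene gives proportionally more finished transcript. Genes that rose had a median length of 69762 bp, genes that fell of 17924 bp, and all autosomal genes tested of 23306 bp. The share of genes that rose was 0.777% among the 1930 genes under 5 kb, 6.95% among those of 20 to 50 kb and 21.0% among the 896 genes of 200 kb and over. The share that fell was 9.43% under 5 kb, 4.27% at 50 to 100 kb and 6.58% at 200 kb and over. The fitted median went from -0.09 under 5 kb to 0.09 at 200 kb and over. The 2 sets of lines differed in their counts for the longest genes. At 200 kb and over, 359 of 883 genes rose and 59 fell in XistDelA, with a median of 0.14. In the WT and XistDelm6A pairs 22 of 894 rose and 46 fell there, with a median of 0.03. Over all lengths 15.1% rose and 14.2% fell in XistDelA, and 1.48% and 1.84% in the other set. In 5 pairs the median of the longest genes was above that of the shortest, while in XistDelm6A replicate 1 the order was opposite, with 0.07 under 5 kb and -0.10 at 200 kb and over. The lists of short genes, such as ribosomal proteins and histones, were set only beside all autosomal genes and not beside genes of like length. The part of gene length in their medians was not tested.

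**Figure D5:**
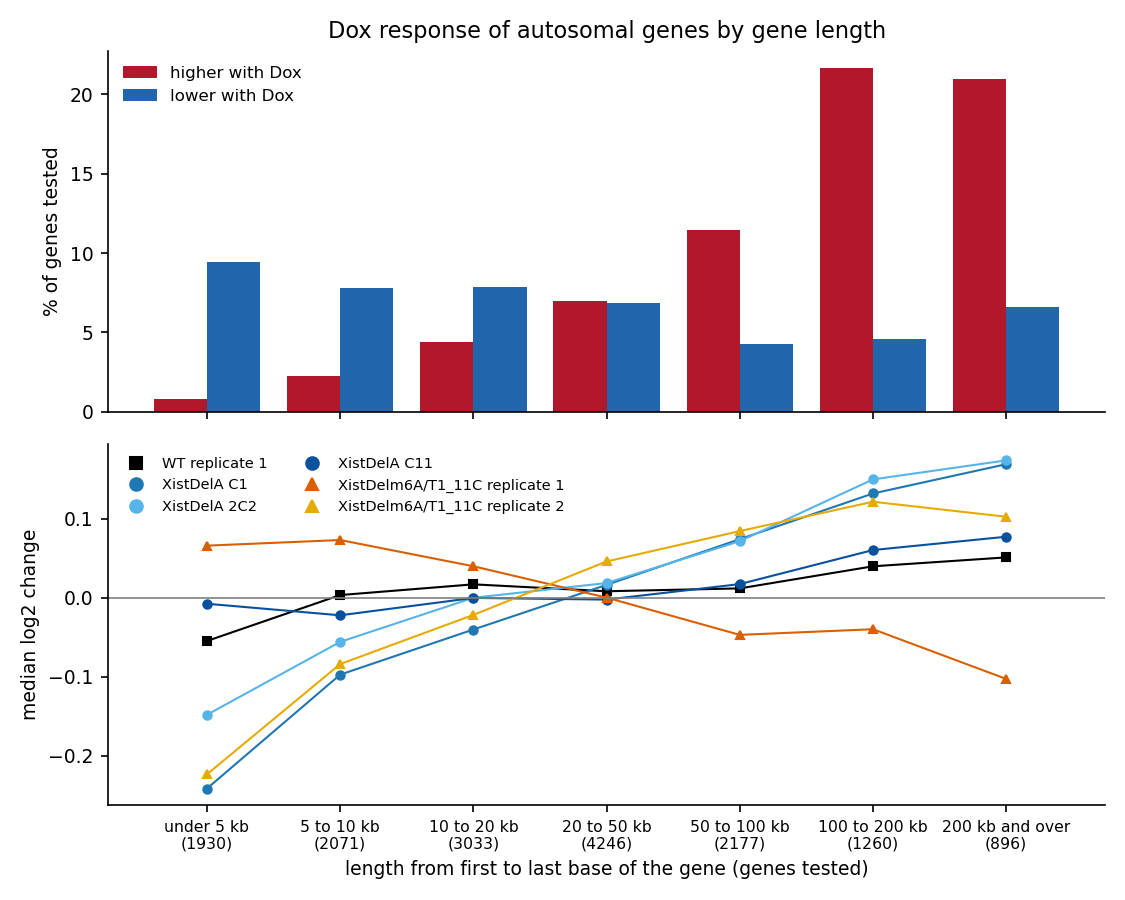
Upper panel, percent of autosomal genes tested that rose or fell with Dox (bars, vertical axis from 0) in 7 classes of gene length; lower panel, median log2 change in each class for the 6 pairs (lines). The percent that rose goes from 0.777 under 5 kb to 21.0 at 200 kb and over, and XistDelm6A replicate 1 slopes the other way, from 0.07 to -0.10.

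Changes were spread over all 19 autosomes. The share of genes that rose ran from 5.11% on chromosome 3 to 11.3% on chromosome 12, and the share that fell from 4.04% on chromosome 7 to 11.2% on chromosome 13. Fitted chromosome medians lay between -0.03 on chromosome 3 and 0.05 on chromosome 12, and no pair had a chromosome median beyond -0.12 or 0.10. Called genes were more often protein coding (90.9% of those that rose, 93.5% of those that fell) than all autosomal genes tested (89.4%), and had higher median levels, at 30.5 and 40.2 CPM against 11.6 CPM.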

How the data were processed

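Chromatin RNA-seq counts of 12 libraries were used as deposited: the authors mapped reads to mm10 with Bowtie2 2.3.2 and STAR 2.4.2a, and counted read pairs on whole gene spans by strand with featureCounts, for all read pairs and for each parental genome. The deposited values are counts without normalization. Read pairs that overlap 2 genes on a strand were not counted.

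Genes were tested on the whole table with edgeR 4.0.16 quasi-likelihood fits (TMM, filterByExpr with a minimum count of 10, pair as replicate block, Benjamini-Hochberg, threshold 0.05) in R 4.3.3, and only chromosomes 1 to 19 are reported. Pairs come from the clone names and replicate numbers of the labels. After the group mean of each state was removed, the correlation of a NoDox library with its Dox partner was 0.590 for C1, 0.356 for 2C2, 0.527 for C11 and 0.689 for XistDelm6A, where 2 replicates give a single value for both pairs. The biological coefficient of variation was 0.0853. Interactions tested the 2 sets of lines and the 2 parental copies, the latter on allelic counts with library and copy-by-pair terms. The pair changes used a prior count of 2. DESeq2 1.42.0 size factors and Wald tests, autosomal TMM, no count filter, a minimum count of 50, no replicate block and leaving out each pair were the alternatives. Fits to the XistDelm6A pairs alone and to the WT and XistDelA pairs alone were added after the data had been seen. The fits were tested on simulated data with log2 changes of 0.5 and 1 planted. The 6-pair fit recovered 68.7% and 88% of them, and the fit of the XistDelA pairs 45.7% and 94.1%. The fit of the WT and XistDelm6A pairs recovered 46.9% and 87.8%, and the interaction with the set 12.1% and 64%. Other values used Python 3.11.15, pandas 2.3.3 and numpy 2.4.6.

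Named genes were the 12 largest rises and 12 largest falls among called genes with the same direction in all 6 pairs and a mean of at least 5 CPM, predicted symbols left out; from each of 19 lists up to 4 genes with the smallest adjusted p and up to 2 chosen by role; and up to 4 genes for each interaction. Of the genes that this rule names, 2 are not reported here by name. The members and lists were chosen with earlier results of these data known. Depth of 18893447 to 36007145 counts left 15613 of 21630 autosomal genes with enough counts to test.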

Additional observations from a re-analysis of the deposited data

Results flagged for a closer look

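Each value here was found by checking 175 sets of 6 pair changes for a pair far from the other 5, of which 9 had such a pair, while chance sets apart about 1 in 20. Ndufa12, a complex I subunit gene, changed by -0.12 in XistDelm6A replicate 2, and by 0.24 to 0.40 in the other 5 pairs. Slc16a3, the lactate exporter gene, changed by 0.0546 in XistDelm6A replicate 1, and by -0.84 to -0.57 in the others. Polk, a DNA polymerase gene, changed by -0.13 in XistDelm6A replicate 1, and by 0.24 to 0.40 in the others. Ftl1, the ferritin light chain gene, changed by -0.28 in XistDelm6A replicate 1, and by -0.82 to -0.64 in the others. The immediate early list had a median of -0.10 in XistDelm6A replicate 1, and of -0.47 to -0.38 in the others. Feeder fibroblast markers had a median of -0.39 in XistDelm6A replicate 2, and of -0.08 to 0.03 in the others. Chromosome 5 had a median of 0.0466 in XistDelm6A replicate 1, and of -0.01 to 0.01 in the others. Chromosome 12 had a median of -0.0342 in XistDelm6A replicate 1, and of 0.03 to 0.06 in the others. Chromosome 14 had a median of 0.0838 in XistDelm6A replicate 2, and of -0.02 to 0.01 in the others. All 9 lone pairs were XistDelm6A pairs, and the cause was not tested.

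For 4 genes the change with Dox differed between the WT and XistDelm6A pairs and the XistDelA pairs by the edgeR interaction test. The difference was -0.84 for Ptprt (adjusted p 9.32e-04), -1.002 for Rnf182 (adjusted p 0.00169), -1.02 for Syn2 (adjusted p 0.00252) and -0.91 for Otx2os1 (adjusted p 0.00267), with the higher change in 3 of 3 XistDelA pairs.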

How the results depend on the processing

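Of 1200 genes that rose and 1084 that fell over 6 pairs, 145 and 197 also changed by at least 0.5 on the log2 scale, and 694 of those that fell were lower in all 6 pairs; these stricter rules keep fewer genes by construction. Other scalings, count filters and DESeq2 gave 928 to 1358 that rose and 1083 to 1205 that fell. Leaving out 1 pair gave 550 to 1470 and 562 to 1403. Added after the data had been seen, the WT and XistDelA pairs alone gave 1913 and 1882, and the XistDelm6A pairs alone 33 and 58; the last uses fewer samples, and otherwise the cause was not tested.

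Leaving out 1 pair gave 7 to 63 genes for the difference between sets of lines (42) and 50 to 83 for that between copies (85). In the XistDelA pairs it gave 999 to 2398 genes that rose and 1014 to 2336 that fell, and in the WT and XistDelm6A pairs 33 to 245 and 58 to 312. With 2 pairs left, fewer samples enter these tests.

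Without the replicate block, so that pairing was ignored and differences between clones entered the error, 28 genes rose and 24 fell over 6 pairs. In the XistDelA pairs edgeR without the block called 2 and 0 (999 that fell at an unadjusted p under 0.05), in the WT and XistDelm6A pairs 1 and 0 (148 at an unadjusted p under 0.05), and for the difference between sets 0 (137 at an unadjusted p under 0.05).

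Of 136 named genes, 127 kept direction and side of the threshold by DESeq2, 135 with DESeq2 size factors and 136 with autosomal TMM. Without the replicate block 58 did, and 78 lost the call. At the lowest leave-out value 10 lost the call and 4 gained it, and at the highest 16 and 3. With 1 pair left out, 3 genes that were not called changed sign: Asns ran from -0.0446 to 0.108, Esrrb from -0.0194 to 0.0971 and Mdm2 from -0.0047 to 0.0782, and the cause was not tested. Scaling moved the median of all autosomal genes by -0.013 and -0.011. Genes with few counts, such as Duoxa1, Tfap2a and Il9r, got no adjusted p from DESeq2, and the depth limits what can be said of them.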
